A study of Danio rerio with 4 samples.

Results

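The leukocyte genes described here are 39 zebrafish genes chosen by symbol as markers of blood leukocytes and of their lineages. They comprise 9 pan-leukocyte genes, 6 macrophage genes, 3 neutrophil genes, 9 genes shared by myeloid cells, 3 inflammatory cytokine genes, 6 T cell genes and 3 B cell genes. Of these, 38 could be paired with 1 row each among the 32520 gene rows of the count tables, and 34 had enough counts to be tested among 17151 tested genes. The exception was *mfap4*, a symbol shared by several rows, which is described separately below.

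The counts come from RNA-seq of endothelial cells sorted by *kdrl:EGFP* fluorescence from adult zebrafish ventricles at 7 days post-amputation (dpa). CtrlK fish carried *kdrl-eGFP* and a transgene in which the *ubi* promoter is followed by *loxp-DsRed-STOP-loxp* and then by *DN-xBrg1*, and DNK fish carried both of these together with *kdrl:CreER*. Both groups received 4-hydroxytamoxifen (4-HT), for 3 days according to the sample labels, and both had their ventricles amputated, so that only DNK fish could recombine and express *dn-xbrg1*, a dominant-negative *Xenopus* form of the chromatin remodeler Brg1. Each group had 2 libraries, CtrlK1 and CtrlK2 against DNK1 and DNK2, and paired values below are given in the order of these numbers. Cre and EGFP were both driven by the *kdrl* promoter, so the libraries show the sorted EGFP-positive fraction of the heart, made from pooled hearts, and not the leukocytes of the whole heart. The fish were adults, and the study raised both sexes, but the sex of the fish in each pool was not given in the sources used here. The study describes the 2 libraries of a group as biological replicates, and the p-values measure the spread between these pools.

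Leukocytes enter an injured heart from the blood, neutrophils early and macrophages afterwards, and in zebrafish macrophages are needed for normal heart regeneration. Endothelial cells help to recruit them by presenting selectins, adhesion molecules and chemokines on the vessel wall. Leukocytes share a set of surface, cytoskeletal and signaling proteins, whereas the receptors, granule enzymes and transcription factors of each lineage tell macrophages, neutrophils, T cells and B cells apart.

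The libraries held between 25189862 and 28770727 counts. Levels are also given as CPM, the counts of a gene scaled to its library's total, and 3 counts were worth 0.104 to 0.119 CPM. Across all tested genes, the edgeR quasi-likelihood test with Benjamini-Hochberg adjustment called 723 genes higher and 726 genes lower in DNK at an adjusted p under 0.05, and the median log2 fold change was -0.02. The 16 measured endothelial markers summed to between 6658 and 7596 CPM in every library. Without *vwf*, the one with the most counts, the sums were 5841 and 6776 CPM in CtrlK and 5411 and 5386 CPM in DNK. The *dn-xbrg1* transgene is a *Xenopus* sequence with no row of its own. The endogenous copy *smarca4a* had 621, 756, 1153 and 798 counts in CtrlK1, CtrlK2, DNK1 and DNK2 (log2 fold change 0.40 ± 0.20 SE, adjusted p = 0.27), and this does not check the labels.

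The leukocyte genes were lower in DNK far more often than they were higher. Of the 34 tested, 11 fell (32.4%), beside 4.23% of all tested genes, and 2 rose (5.88%), beside 4.22% of all tested genes. The genes that fell were *coro1a*, *ptprc*, *lcp1*, *rac2*, *itgb2*, *mpx*, *cybb*, *lyn*, *cebpa*, *cebpb* and *cd4-1*, and those that rose were *tnfb* and *zap70*. The other 21 did not pass the test. The genes were chosen with earlier results of these data known, so the shares describe the list and do not test it. All 13 called genes are also among the changed genes that the study listed from the same libraries. In TMM-normalized counts, both DNK libraries lay below both CtrlK libraries for 20 genes, beside 28.6% of all tested genes, and above them for 5, beside 26.9% of all tested genes. The median log2 fold change of the 34 genes was -0.59. Among the 25 genes with a mean of at least 100 normalized counts, a limit added after the data were seen, 9 fell (36%) and 1 rose, where 5.03% of the 11738 tested genes above the same limit fell and 5.41% rose.

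The number of calls depended on which library was left out. Over all tested genes, too, fewer genes were called in each direction with any library left out. Without CtrlK1, 3 leukocyte genes fell, without CtrlK2 9 fell, without DNK1 10 fell and without DNK2 5 fell, while the number that rose was 0, 0, 1 and 2 in the same order. The transcripts of *lcp1*, *cebpa* and *cebpb* passed the test in all 4 of these fits. The called genes were not always those of the full fit. Without DNK1, *hck* (log2 fold change -1.15) and *plek* (-1.58) were new among the falls, and *cd4-1*, *coro1a* and *rac2* were lost. Without DNK2, *marco* (log2 fold change 1.37) was new among the rises, and *zap70* was lost. In bulk libraries of sorted cells, fewer leukocytes in the sorted fraction and less leukocyte RNA per cell cannot be told apart. Some of these genes, such as *cebpb*, are active in other cell types too, and which cells gave the counts was not tested.

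**Figure D1:**
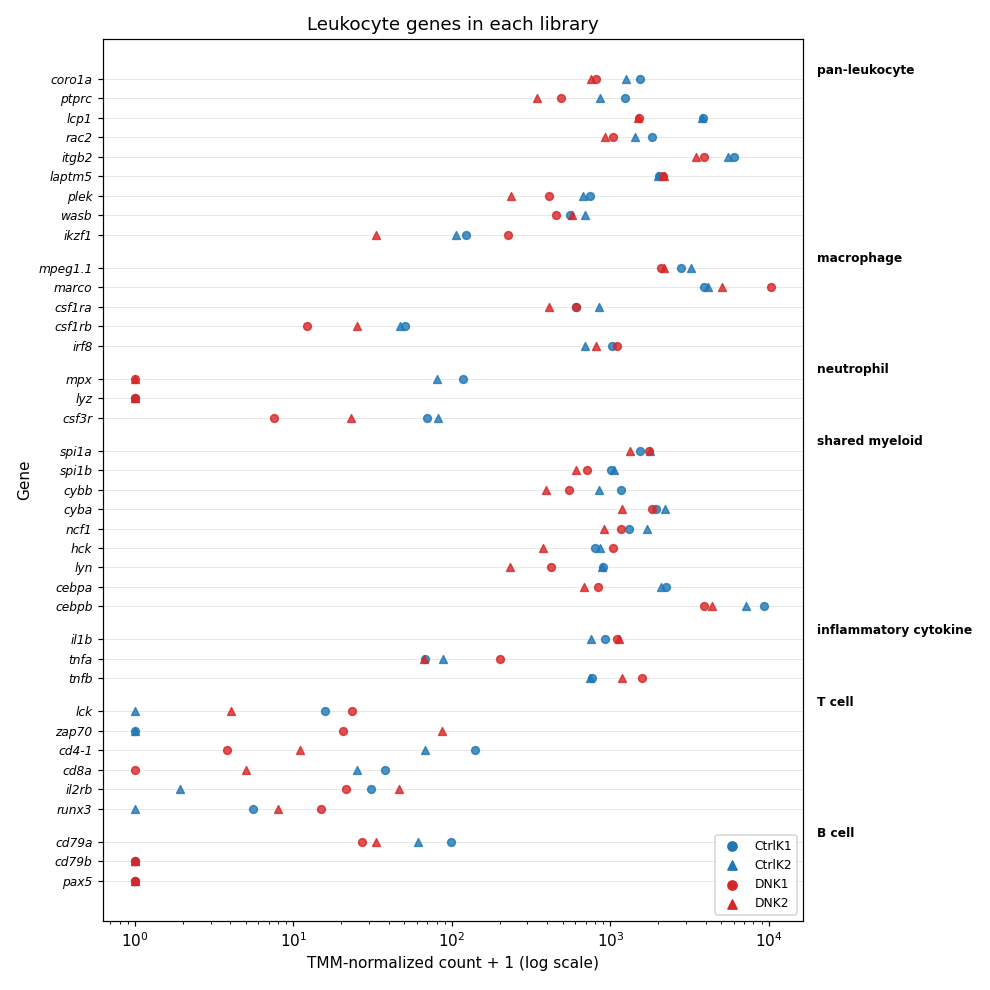
TMM-normalized count plus 1 of each of the 38 leukocyte genes (log axis) in CtrlK1, CtrlK2, DNK1 and DNK2, grouped by lineage. Points at the left edge are counts of 0. The DNK points lie to the left of the CtrlK points for *lcp1*, *cebpa* and *cebpb*, and to the right for *tnfb* and *zap70*.

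Pan-leukocyte genes were represented by 9 transcripts, all of which were tested. Of these, 5 fell (55.6%, beside 4.23% of all tested genes) and none rose (beside 4.22%), with a median log2 fold change of -0.74. Both DNK libraries lay below both CtrlK libraries for 6 of the 9, beside 28.6% of all tested genes. The smallest adjusted p among them belonged to *lcp1*, which encodes L-plastin, an actin-bundling protein of leukocytes. It had 3370 and 4051 counts in CtrlK and 1633 and 1486 in DNK. After normalization this was 3828 ± 46.5 (SD, n = 2) in CtrlK and 1508 ± 20.5 (SD, n = 2) in DNK, 2.54-fold lower (log2 fold change -1.34 ± 0.11 SE, adjusted p = 0.00088). The gap between groups was many times the spread within either group.

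*ptprc* encodes CD45, the receptor tyrosine phosphatase carried by nearly all leukocytes. It had 1075 and 911 counts in the CtrlK libraries and 521 and 341 in the DNK libraries, a log2 fold change of -1.33 ± 0.26 SE (adjusted p = 0.026). The groups did not overlap, although the call was lost without CtrlK1 and without DNK2. *coro1a*, which encodes the leukocyte actin regulator coronin 1A, had 1350 and 1330 counts in CtrlK and 864 and 754 in DNK (log2 fold change -0.84 ± 0.17 SE, adjusted p = 0.027). It passed the test in 1 of the 4 fits with a library left out, the one without CtrlK2.

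*rac2*, a small GTPase of blood cells, had 1604 and 1522 counts in CtrlK and 1108 and 913 in DNK (log2 fold change -0.74 ± 0.17 SE, adjusted p = 0.043). *itgb2* encodes the β chain of the leukocyte integrins, with which leukocytes adhere firmly to endothelium. Its counts were 5262 and 5933 in CtrlK and 4174 and 3465 in DNK (log2 fold change -0.65 ± 0.11 SE, adjusted p = 0.013). Both genes were lower in each DNK library than in each CtrlK library, but *rac2* lost its call with scaling by total counts alone (adjusted p = 0.051) and with non-robust dispersions (adjusted p = 0.054). It passed only without CtrlK2, and *itgb2* only without CtrlK2 or DNK1, among the fits with a library left out.

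The 4 pan-leukocyte genes that did not pass the test differed among themselves. *plek*, which encodes the protein kinase C substrate pleckstrin of platelets and leukocytes, had 652 and 715 counts in CtrlK and 436 and 235 in DNK (log2 fold change -1.14 ± 0.29 SE, adjusted p = 0.058). Its groups did not overlap, but its DNK libraries were further apart than those of *lcp1*. *laptm5*, a lysosomal membrane protein of blood cells, had 1762 and 2118 counts in CtrlK and 2305 and 2184 in DNK, with a log2 fold change of 0.12 ± 0.12 SE (adjusted p = 0.61). Its normalized counts were 2001 ± 24.3 (SD, n = 2) in CtrlK and 2172 ± 32.5 (SD, n = 2) in DNK, with both DNK libraries slightly higher.

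*wasb*, the zebrafish copy of the Wiskott-Aldrich syndrome gene that directs actin assembly in leukocytes, had 482 and 741 counts in CtrlK and 488 and 569 in DNK (log2 fold change -0.28 ± 0.23 SE, adjusted p = 0.52). The zinc finger factor of lymphoid development *ikzf1* had 106 and 112 counts in CtrlK but 240 in DNK1 and 32 in DNK2 (log2 fold change 0.18 ± 0.82 SE, adjusted p = 0.93). The normalized counts of its 2 DNK libraries differed 6.96-fold and lay on either side of both CtrlK libraries.

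**Figure D2:**
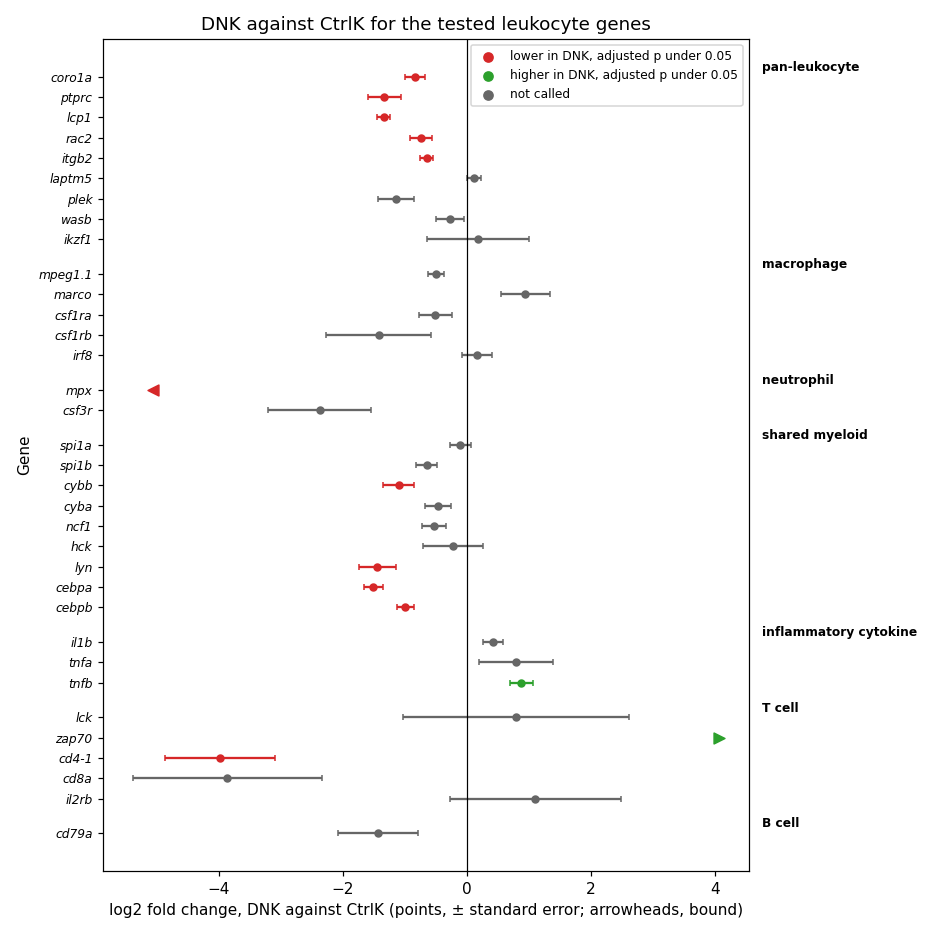
Log2 fold change of DNK against CtrlK for the 34 tested leukocyte genes, grouped by lineage, with bars of ± 1 standard error and colors for the edgeR call at an adjusted p under 0.05. Arrowheads mark the bounds for *mpx* and *zap70*, each at 0 in 1 group. All 9 shared myeloid genes lie left of 0 and all 3 cytokine genes lie right of it.

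Genes shared by myeloid cells include the transcription factors that set the myeloid fate and the oxidase and kinases that macrophages and neutrophils both use. All 9 had negative log2 fold changes (median -0.65). Of them, 4 fell (44.4%, beside 4.23% of all tested genes) and none rose (beside 4.22%). The transcription factor *cebpa*, which drives granulocyte and macrophage development, had 1965 and 2216 counts in CtrlK and 896 and 681 in DNK. Normalized, this was 2163 ± 124 (SD, n = 2) in CtrlK and 760 ± 107 (SD, n = 2) in DNK, 2.85-fold lower (log2 fold change -1.51 ± 0.15 SE, adjusted p = 0.0019). Its relative *cebpb*, active in macrophages and in inflammation but also in many other cell types, had 8105 and 7681 counts in CtrlK and 4188 and 4327 in DNK (log2 fold change -0.998 ± 0.14 SE, adjusted p = 0.0067). For both factors the groups stood clearly apart.

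The Src family kinase *lyn* had 784 and 948 counts in CtrlK and 453 and 232 in DNK (log2 fold change -1.45 ± 0.29 SE, adjusted p = 0.028), and among the fits with a library left out it passed only without DNK1. The other Src family kinase among these genes, *hck*, had 697 and 919 counts in CtrlK, 1121 in DNK1 and 373 in DNK2 (log2 fold change -0.22 ± 0.48 SE, adjusted p = 0.84). Whereas *lyn* was lower in both DNK libraries, *hck* was above both CtrlK libraries in DNK1 and below both in DNK2, with a 2.79-fold gap between the 2 DNK libraries.

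*cybb*, which encodes the catalytic subunit of the phagocyte NADPH oxidase, had 1019 and 903 counts in CtrlK and 590 and 388 in DNK (log2 fold change -1.10 ± 0.25 SE, adjusted p = 0.041), a call lost without CtrlK1, without DNK2 and with non-robust dispersions (adjusted p = 0.053). Its membrane partner *cyba* had 1699 and 2372 counts in CtrlK and 1959 and 1185 in DNK (log2 fold change -0.47 ± 0.21 SE, adjusted p = 0.23). *ncf1*, the cytosolic organizer subunit of the same oxidase, had 1144 and 1809 counts in CtrlK and 1251 and 901 in DNK (log2 fold change -0.54 ± 0.19 SE, adjusted p = 0.14). The raw counts of *cyba* and *ncf1* overlapped between groups, but after normalization both DNK libraries were below both CtrlK libraries. Only the catalytic subunit passed the test, and the differences between the subunits were not tested.

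Both *spi1* copies encode PU.1, the master transcription factor of myeloid cells. *spi1b* had 885 and 1126 counts in CtrlK and 760 and 606 in DNK (log2 fold change -0.65 ± 0.17 SE, adjusted p = 0.064), without overlap. *spi1a* had 1349 and 1899 counts in CtrlK and 1875 and 1325 in DNK (log2 fold change -0.11 ± 0.17 SE, adjusted p = 0.77), and its groups overlapped. Neither passed the test.

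Apart from the *mfap4* rows given below, macrophage genes did not pass the test in either direction. The 5 that were tested had log2 fold changes from -1.43 to 0.94, with a median of -0.50, and at an unadjusted p under 0.05 the test held for *mpeg1.1* alone. The first in this list, *mpeg1.1*, encodes the pore-forming protein perforin-2 and is the standard zebrafish macrophage marker. It had 2419 and 3467 counts in CtrlK and 2223 and 2174 in DNK, and normalized counts of 3009 ± 337 (SD, n = 2) in CtrlK and 2129 ± 79.5 (SD, n = 2) in DNK. Both DNK libraries were lower, by 1.41-fold, with a log2 fold change of -0.50 ± 0.13 SE and an adjusted p of 0.058 in edgeR. DESeq2 gave an adjusted p of 0.0064 for the same counts. Zebrafish carry related *mpeg1* copies, and since only uniquely mapped reads were counted, reads common to them were lost.

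The scavenger receptor *marco* went the other way. It had 3416 and 4394 counts in CtrlK, 11090 in DNK1 and 5036 in DNK2 (log2 fold change 0.94 ± 0.39 SE, adjusted p = 0.28). Both DNK libraries were above both CtrlK libraries, but DNK1 held 2.04 times the normalized count of DNK2. The log2 fold change was 0.34 without DNK1 and 1.37 without DNK2. Of the 8 alternative fits, 1 called *marco* higher, the edgeR fit without a filter on low counts (adjusted p = 9.7e-12). DESeq2 gave an adjusted p of 0.22. Since *marco* had more counts than the other macrophage genes, it set the direction of their summed level, as given below.

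The receptors for the macrophage growth factor CSF1 are encoded by *csf1ra* and *csf1rb*. *csf1ra*, which pigment cells also express, had 527 and 902 counts in CtrlK and 652 and 409 in DNK (log2 fold change -0.51 ± 0.27 SE, adjusted p = 0.31), with overlapping groups. *csf1rb* had only 43 and 49 counts in CtrlK and 12 and 24 in DNK (log2 fold change -1.43 ± 0.85 SE, adjusted p = 0.37). *irf8*, the transcription factor that macrophages require, had 893 and 735 counts in CtrlK and 1175 and 807 in DNK (log2 fold change 0.16 ± 0.24 SE, adjusted p = 0.77). The groups of *irf8* overlapped and its sign turned when CtrlK2 or DNK1 was left out.

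The macrophage symbol *mfap4* could not be assigned to 1 row, because 8 rows carry the human-style name MFAP4 without a zebrafish symbol of their own. Together they held 2400 and 3001 counts in the CtrlK libraries and 2118 and 1252 in the DNK libraries. Of the 6 rows tested, 1 fell (beside 4.23% of all tested genes) and none rose (beside 4.22%). The row that fell, ENSDARG00000088745, had 1289 and 1304 counts in CtrlK and 563 and 398 in DNK (log2 fold change -1.54 ± 0.20 SE, adjusted p = 0.0055). It was called in all 8 alternative fits. Another abundant row, ENSDARG00000090783, had 592 and 1070 counts in CtrlK and 736 and 503 in DNK (log2 fold change -0.50 ± 0.25 SE, adjusted p = 0.30). The next, ENSDARG00000089667, had 432 and 490 counts in CtrlK, 708 in DNK1 and 305 in DNK2 (adjusted p = 0.98). The sequences of these rows were not compared here. Since reads that map to more than 1 place were not counted, the counts of any near-identical copies are uncertain, and the rows were left out of the 34 tested genes.

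Neutrophil genes were scarce in every library. The myeloperoxidase gene *mpx*, whose product fills neutrophil granules, had 101 and 85 counts in CtrlK and no count in DNK. Against a floor of 3 counts per DNK library it was at least 33.6-fold lower in DNK (adjusted p = 0.0090). The call was lost without CtrlK1, at an adjusted p of 0.055. *csf3r*, the receptor for granulocyte colony-stimulating factor, had 60 and 86 counts in CtrlK and 7 and 22 in DNK (log2 fold change -2.38 ± 0.84 SE, adjusted p = 0.14), without overlap between the groups. The lysozyme gene *lyz*, otherwise an abundant transcript of zebrafish neutrophils, had 0 counts in all 4 libraries. If its reads could be counted, which was not checked, this allows up to 0.119 CPM in the shallowest library.

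Inflammatory cytokine genes had positive log2 fold changes, with a median of 0.79 over 3 genes. Of the 3, 1 rose (33.3%, beside 4.22% of all tested genes) and none fell (beside 4.23%). The tumor necrosis factor gene *tnfb* rose, with 668 and 798 counts in CtrlK and 1707 and 1174 in DNK. Its normalized counts were 756 ± 12.5 (SD, n = 2) in CtrlK and 1386 ± 291 (SD, n = 2) in DNK, 1.83-fold higher (log2 fold change 0.87 ± 0.18 SE, adjusted p = 0.032). It passed the test in 1 of the 4 fits with a library left out, the one without DNK2. The second copy, *tnfa*, had 58 and 93 counts in CtrlK, 215 in DNK1 and 65 in DNK2 (log2 fold change 0.79 ± 0.60 SE, adjusted p = 0.50), so that only DNK1 stood above CtrlK. *il1b*, which encodes the inflammasome-processed cytokine interleukin-1β, had 801 and 810 counts in CtrlK and 1189 and 1128 in DNK (log2 fold change 0.42 ± 0.17 SE, adjusted p = 0.18). Both DNK libraries of *il1b* were above both CtrlK libraries, as for 26.9% of all tested genes, without passing the test. Cytokine transcripts are not restricted to leukocytes, and endothelial cells can make them too.

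T cell genes were measured at low counts and moved in both directions. *cd4-1*, the co-receptor of helper T cells, which zebrafish macrophages can carry as well, had 122 and 71 counts in CtrlK and 3 and 10 in DNK. It fell by 3.99 on the log2 scale (± 0.89 SE, adjusted p = 0.039), but among the fits with a library left out it passed only without DNK2. *cd8a*, the co-receptor of cytotoxic T cells, had 32 and 26 counts in CtrlK and 0 and 4 in DNK (log2 fold change -3.86 ± 1.53 SE, adjusted p = 0.18). Both co-receptors were lower in each DNK library than in each CtrlK library, as were 28.6% of all tested genes. Of the 5 tested T cell genes, these 2 lay below, 1 lay above (beside 26.9% of all tested genes) and 2 overlapped.

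The T cell receptor kinase *zap70* had 0 counts in both CtrlK libraries, 21 in DNK1 and 85 in DNK2. Against a floor of 3 counts per CtrlK library it was at least 16.8-fold higher in DNK (adjusted p = 0.042), and the call held only in the fit without DNK1. *lck*, the Src family kinase that acts with the co-receptors, had 13 and 0 counts in CtrlK and 24 and 3 in DNK (log2 fold change 0.79 ± 1.82 SE, adjusted p = 0.85). *il2rb*, a chain of the interleukin-2 receptor, had 26 and 1 counts in CtrlK and 22 and 45 in DNK (log2 fold change 1.11 ± 1.38 SE, adjusted p = 0.70). The groups of both genes overlapped. *runx3*, a transcription factor of cytotoxic T cells, had 4, 0, 15 and 7 counts and was too low to be tested.

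B cell genes were detected through *cd79a* alone. This gene, which encodes a signaling chain of the B cell receptor, had 85 and 64 counts in CtrlK and 28 and 32 in DNK, lower in both DNK libraries (log2 fold change -1.43 ± 0.65 SE, adjusted p = 0.24, and 0.23 by DESeq2). Its partner *cd79b* and the B cell transcription factor *pax5* had 0 counts in all 4 libraries.

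Summed over each lineage, the levels of the libraries differed between lineages. The pan-leukocyte genes summed to 622 and 606 CPM in CtrlK and to 418 and 375 CPM in DNK, a DNK to CtrlK ratio of 0.646. The shared myeloid genes summed to 701, 691, 465 and 376 CPM in the same order, a ratio of 0.605. Both sums were lower in each DNK library, and leaving out the gene with the most counts gave ratios of 0.633 and 0.660.

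The macrophage genes summed to 290 and 332 CPM in CtrlK and to 538 and 318 CPM in DNK, a ratio of 1.38. Without *marco* the sums were 154, 179, 144 and 128 CPM and the ratio was 0.818. The direction of the macrophage sum thus rested on 1 gene. The 19 further macrophage genes paired with a row, described below, summed to 3443 and 3858 CPM in CtrlK and to 4396 and 3821 CPM in DNK. These groups overlapped, and the ratio was 1.13, or 1.17 without *cd74a*, the gene with the most counts. Most counts in that sum were those of *cd74a* and *cd74b*, neither of which passed the test. Which cells gave these counts was not tested, so the ratio does not stand for a macrophage level. Relative to the pan-leukocyte sum, the macrophage genes without *marco* stood at 0.248 and 0.296 in CtrlK and at 0.345 and 0.342 in DNK. These ratios were higher in both DNK libraries, and this was not tested.

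The neutrophil genes summed to 6.39 and 5.94 CPM in CtrlK and to 0.248 and 0.827 CPM in DNK, a ratio of 0.0872. Without *mpx* the ratio was 0.200, and leaving out DNK2 moved the log2 ratio from -3.52 to -4.63. The 15 further neutrophil genes described below gave a ratio of 1.08 for their sum. Most counts in that sum were those of *srgn* and *s100a10b*, neither of which passed the test. Of the 14 tested, 9 had negative log2 fold changes and 5 positive ones, so the ratio does not stand for the list. The cytokine genes summed to 60.6 and 59.1 CPM in CtrlK and to 110 and 88.9 CPM in DNK, a ratio of 1.66. T cell sums overlapped, at 7.82 and 3.41 CPM in CtrlK and 3.02 and 5.79 CPM in DNK. B cell sums, all of them counts of *cd79a*, were 3.37 and 2.22 CPM in CtrlK and 0.994 and 1.202 CPM in DNK.

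**Figure D3:**
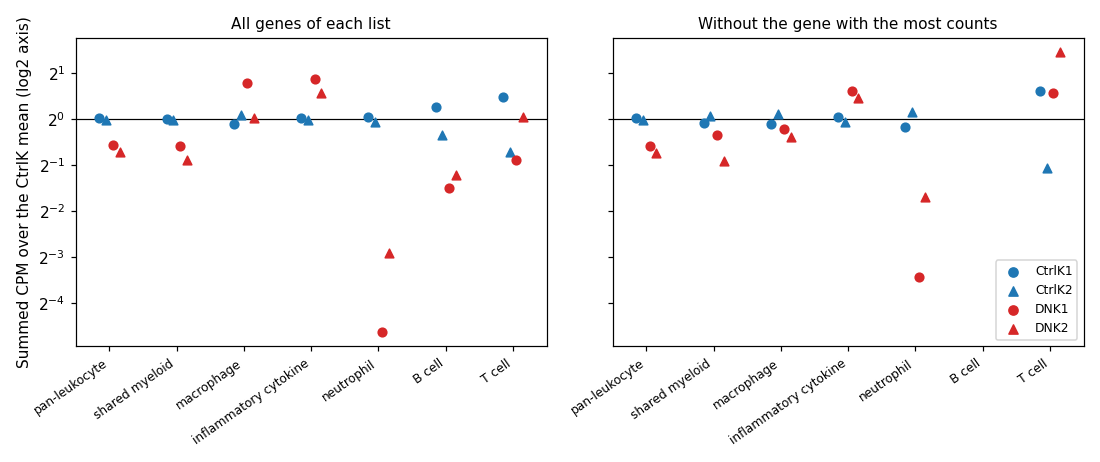
Summed CPM of each lineage list in each library divided by the mean of the 2 CtrlK libraries (log2 axis), with all genes of a list on the left and without the gene with the most counts on the right. The macrophage points of DNK fall below CtrlK once *marco* is left out (ratio 0.818 in place of 1.38), and B cell genes have no counts left without *cd79a*.

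Further genes listed for the same lineages, together with genes through which vessels attract leukocytes, gave a less uniform picture. Whether their counts came from those lineages was not tested. Of 124 such symbols, 100 could be paired with a row and 76 were tested. Of the 76, 8 were recruitment genes of vessels and not markers of a leukocyte lineage. In all, 10 fell (13.2%, beside 4.23% of all tested genes), 4 of them recruitment genes, and 2 rose (2.63%, beside 4.22%). The median log2 fold change of the 76 was -0.32. Of these 12 called genes, 8 took their names from a table of changed genes that accompanies the study, which made changed genes easier to pair, so the shares are uncertain.

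Of 17 further macrophage genes, 2 fell (11.8%, beside 4.23% of all tested genes) and 1 rose (5.88%, beside 4.22%). Their median log2 fold change was 0.23. The lysosomal protease gene *ctss2.2* had 2869 and 3598 counts in CtrlK and 2475 and 1754 in DNK (log2 fold change -0.71 ± 0.15 SE, adjusted p = 0.032). The chemokine receptor gene *cxcr3.2*, through which zebrafish macrophages are recruited, had 823 and 867 counts in CtrlK and 451 and 456 in DNK (log2 fold change -0.998 ± 0.19 SE, adjusted p = 0.023). *ccl34b.1*, a chemokine that marks zebrafish macrophages and microglia, rose from 22 and 28 counts to 108 and 174 (log2 fold change 2.41 ± 0.56 SE, adjusted p = 0.043). The call of *ctss2.2* held in 1 of the 4 fits with a library left out, and those of *cxcr3.2* and *ccl34b.1* in none.

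Of 14 further neutrophil genes, 3 fell (21.4%, beside 4.23% of all tested genes) and none rose (beside 4.22%). Their median log2 fold change was -0.62. The carboxypeptidase gene *cpa5*, a marker of zebrafish mast cells as well as of granulocytes, had 79 and 49 counts in CtrlK and no count in DNK, a difference of at least 23.5-fold (adjusted p = 0.020). The metalloprotease gene *adam8a* had 1165 and 667 counts in CtrlK and 197 and 126 in DNK (log2 fold change -2.66 ± 0.41 SE, adjusted p = 0.013). The interleukin-6 receptor gene *il6r* had 732 and 1065 counts in CtrlK and 441 and 374 in DNK (log2 fold change -1.22 ± 0.20 SE, adjusted p = 0.012). With a library left out, *cpa5* passed in 3 of the 4 fits, and *adam8a* and *il6r* in 2 each.

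Of 15 further genes of myeloid oxidase and signaling, 1 fell and 1 rose (6.67% each, beside 4.23% and 4.22% of all tested genes). The phosphatase gene *ptpn6*, which encodes the inhibitory phosphatase SHP-1 of blood cells, had 1265 and 1767 counts in CtrlK and 721 and 600 in DNK (log2 fold change -1.28 ± 0.16 SE, adjusted p = 0.0042). *myd88*, the adaptor of Toll-like and interleukin-1 receptors found in many cell types, had 1511 and 1972 counts in CtrlK and 2667 and 2855 in DNK (log2 fold change 0.58 ± 0.13 SE, adjusted p = 0.038). *ptpn6* passed in all 4 fits with a library left out and *myd88* in none of them. None of the 11 further T and NK cell genes and none of the 11 further B cell genes that were tested passed in either direction, with medians of -0.81 and -0.55. These medians describe the lists and not the lineages. The listed T cell gene *gata3* had 1238 and 1189 counts in CtrlK and 1274 and 1134 in DNK, far more than *lck*. The listed B cell gene *ebf1a* had 1596 and 2248 counts in CtrlK and 2725 and 2169 in DNK, while *cd79b* and *pax5* had 0. At an unadjusted p under 0.05, 3 of the T and NK cell genes were lower and 1 higher, and 3 of the B cell genes were lower. DESeq2 called 2 of the T and NK cell genes and 1 of the B cell genes lower. Of all 17151 tested genes, 2166 were lower and 1938 higher at that unadjusted p. DESeq2 called 1432 of them lower and 1271 higher.

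Genes through which vessels attract leukocytes were also lower in DNK where they passed the test. Of 13 symbols, 10 could be paired and 8 were tested. Of the 8, 4 fell (50%, beside 4.23% of all tested genes) and none rose (beside 4.22%). All 4 kept negative log2 fold changes with any library left out. *sele*, *cxcl12a* and *jam2a* took their names from the changed genes of the study, so the share is uncertain. The adhesion receptor gene *vcam1a*, whose product binds leukocyte integrins, had 339 and 397 counts in CtrlK and 22 and 4 in DNK (log2 fold change -4.92 ± 0.65 SE, adjusted p = 0.0058). The other copy, *vcam1b*, had 26810 and 33245 counts in CtrlK and 33621 and 33073 in DNK (log2 fold change 0.06 ± 0.07 SE, adjusted p = 0.64). The difference of *vcam1b* was smaller than its standard error, and the difference between the copies was not tested.

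The chemokine gene *cxcl12a* had 203 and 213 counts in CtrlK and no count in DNK, a difference of at least 74.3-fold (adjusted p = 0.0017). *sele*, which encodes the endothelial selectin that slows rolling leukocytes, had 13544 and 19815 counts in CtrlK and 10850 and 10419 in DNK (log2 fold change -0.73 ± 0.10 SE, adjusted p = 0.0069). The junctional adhesion molecule gene *jam2a* had 3894 and 5272 counts in CtrlK and 2417 and 2765 in DNK (log2 fold change -0.90 ± 0.13 SE, adjusted p = 0.0092). For these genes, too, both DNK libraries lay below both CtrlK libraries, as they did for 28.6% of all tested genes.

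**Figure D4:**
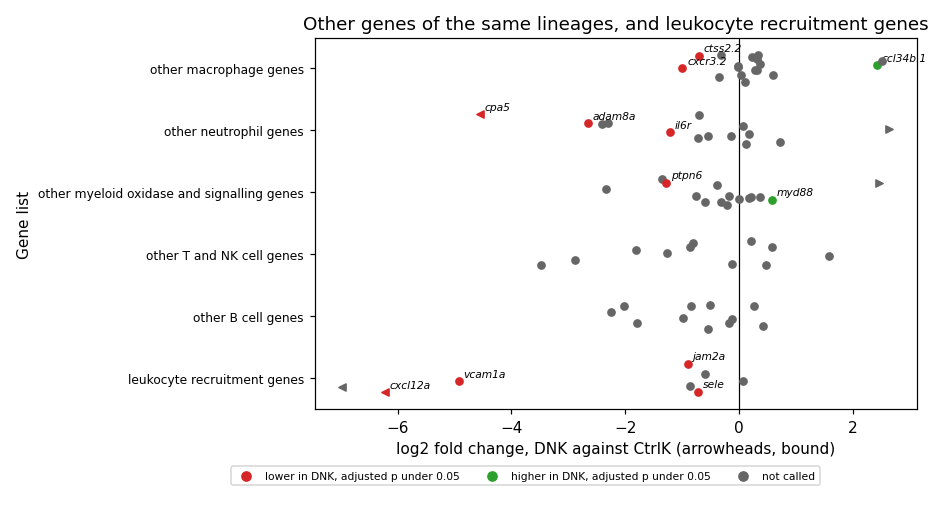
Log2 fold change of DNK against CtrlK for 76 further genes in 6 lists, each point a gene, with vertical scatter within a list for legibility and colors for the edgeR call at an adjusted p under 0.05. Arrowheads mark bounds for genes at 0 in 1 group. Of the 8 leukocyte recruitment genes, 4 fell, and no gene of the T and NK cell or B cell lists was called.

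Markers of other cell types also differed between the groups. The 10 measured cardiomyocyte markers summed to 13328 and 4324 CPM in CtrlK and to 1348 and 168 CPM in DNK, and none of them passed the test, with 1 lower at an unadjusted p under 0.05 and 3 lower by DESeq2. The 7 erythrocyte markers summed to 195, 50.5, 3.94 and 16.3 CPM in the same order, and 1 of them fell (14.3%, beside 4.23% of all tested genes). At an unadjusted p under 0.05 in edgeR, 4 of the 7 were lower, and DESeq2 called 5 lower. Among all 17151 tested genes, 2166 were lower at that unadjusted p, and DESeq2 called 1432 lower. Of 5 tested thrombocyte markers, 4 fell (80%, beside 4.23% of all tested genes). Their list summed to 1448 and 1692 CPM in CtrlK and 934 and 893 CPM in DNK. Most of that sum was *fgl2a*, and without it the sums were 107, 102.8, 85.8 and 71.7 CPM. The defining thrombocyte integrin gene *itga2b* had 37 and 172 counts in CtrlK and no count in DNK. The 9 epicardial and fibroblast markers did not move together. Of the 9, 3 rose (33.3%, beside 4.22% of all tested genes), the collagen genes *col1a1a* and *col1a2* and the growth factor receptor gene *pdgfra*. With them rose the summed level, from 1635 and 1829 CPM in CtrlK to 2610 and 2710 CPM in DNK. The median log2 fold change of the 9 was -0.20, and 5 had negative values, of which edgeR called none, 1 had an unadjusted p under 0.05 and DESeq2 called 2. Among these, *tcf21* had 19 and 56 counts in CtrlK and 14 and 0 in DNK, and *tbx18* had 47 and 62 in CtrlK and 0 and 4 in DNK. Of the 16 endothelial markers, 4 fell (25%, beside 4.23% of all tested genes) and 2 rose (12.5%, beside 4.22%). The marker of the sort, *kdrl*, was 1.38-fold lower in DNK (log2 fold change -0.47 ± 0.07 SE, adjusted p = 0.011), and the vesicle protein gene *plvapb* had 5550 and 10399 counts in CtrlK and 590 and 522 in DNK (log2 fold change -3.90 ± 0.22 SE, adjusted p = 0.00036). Its relative *plvapa* had 5937 and 10022 counts in CtrlK and 452 and 156 in DNK (log2 fold change -4.80 ± 0.69 SE). It did not pass the edgeR test (adjusted p = 0.067), whereas DESeq2 gave an adjusted p of 2.9e-10. Of the 8 alternative fits, 3 called it. Without *vwf*, which rose, the endothelial sums were 5841 and 6776 CPM in CtrlK and 5411 and 5386 CPM in DNK, a ratio of 0.856. The summed cardiomyocyte, erythrocyte and thrombocyte markers were thus lower in both DNK libraries, as the pan-leukocyte and shared myeloid sums were, although single markers such as *myh6*, with 0 and 28 counts in CtrlK and 84 and 30 in DNK, were not. The part of these cell types in the leukocyte differences was not tested.

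**Figure D5:**
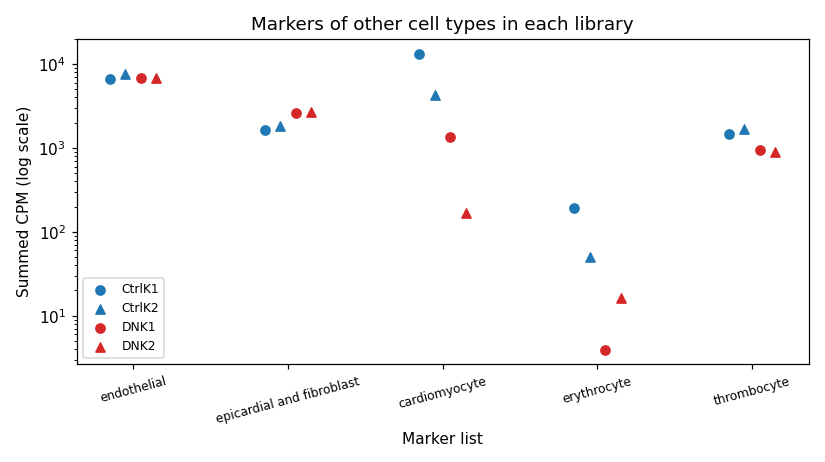
Summed CPM (log axis) of the markers of endothelial cells and of other cell types in CtrlK1, CtrlK2, DNK1 and DNK2. Endothelial sums, *vwf* included, lie between 6658 and 7596 CPM in every library, whereas the cardiomyocyte sum ranges from 168 CPM in DNK2 to 13328 CPM in CtrlK1.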

How the data were processed

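The authors checked reads with FastQC 0.11.9, mapped them with HISAT2 2.2.1 to GRCz11 and deposited uniquely mapped featureCounts 2.0.1 counts for each Ensembl gene, unnormalized and unfiltered, from kdrl:EGFP-sorted cells (2 CtrlK and 2 DNK libraries). Samples were grouped by their titles. Whether counting used strand is not given in the sources used here, so overlapping and antisense genes are uncertain.

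Counts were filtered with filterByExpr, which replaced the FPKM filter of the study since exon lengths were not used here, TMM-normalized and tested two-sided with edgeR 4.0.16 (glmQLFit robust, glmQLFTest) in R 4.3.3, group being the sole term, with Benjamini-Hochberg adjustment over 17151 genes. The standard error is the size of the log2 fold change divided by the square root of F. Normalized counts were scaled to the mean library size. The fit was also run on simulated data, and no result of that run is used here. DESeq2 1.42.0, other scalings and filters, non-robust dispersions, a replicate block and fits with each library left out were alternatives. Tables and figures were made with Python 3.11.15, NumPy 2.4.6, pandas 2.3.3 and Matplotlib 3.10.9.

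Identifiers were paired with symbols from a supplementary table of the study (1998), whose rows are changed genes and of which only identifiers and names were used, from an identifier table (13694), and from neighbouring rows, 25 on each side, and the GRCz12tu gene table (9779). Of 1053 neighbour-derived names that the supplementary table also held, 95.3% were identical. *wasb*, *ikzf1*, *irf8*, *csf3r*, *ncf1*, *hck*, *runx3* and *pax5* rest on neighbours. Levels were not compared per length, and no sequences or coordinates are given.

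The text names all 39 symbols, the called genes of 6 further lists, and *smarca4a*. Also named are *vcam1b*, *cd74a*, *cd74b*, *srgn*, *s100a10b*, *gata3*, *ebf1a* and single markers of other cell types, which were added after their values were seen. The genes and lists were chosen with earlier results of these data known.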

Additional observations from a re-analysis of the deposited data

How the results depend on the processing

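With 2 libraries a group, calls near the threshold moved with the processing. Over the 34 tested genes, 246 of 265 values from the 8 alternative fits kept their direction and side of the threshold, as did 100 of 136 values from fits with a library left out, in which a lone library is assumed to vary like the other group. The 11 falls became 14 with DESeq2, which kept all 11 and added *mpeg1.1*, *plek* and *spi1b*, 16 without a filter on low counts, 10 with total counts alone (losing *rac2*), 9 with non-robust dispersions (losing *cybb* and *rac2*) and 4 at an adjusted p under 0.01, and ranged from 3 to 10 with a library left out. The 2 rises became 3 without a filter on low counts, which added *marco*. They became 1 with at least 10 counts in every library, with non-robust dispersions and at a mean of at least 100 normalized counts. At an adjusted p under 0.01 they became 0. For all genes, 723 higher and 726 lower became 1271 and 1432 with DESeq2, 1315 and 1775 without the filter, 271 and 223 at an adjusted p under 0.01, and 354 to 425 and 328 to 567 with a library left out. Scaling by total counts alone gave 805 higher and 622 lower. In the further lists, 2 higher and 10 lower became 4 and 16 with DESeq2 and 7 and 22 without the filter, and the 2 higher became 0 with non-robust dispersions, 1 with the replicate block and 0 with CtrlK1, CtrlK2 or DNK1 left out.

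The labels number replicates in both groups, but deviations of same-numbered libraries correlated at 0.09 across genes, so the numbers were not taken as pairs. A fit with the replicate block gave 11 falls, losing *cd4-1* and adding *plek*, and 2 rises, and turned the log2 fold change of *ikzf1* to -0.36. With a library left out, the log2 fold change ranged from -1.81 to 0.98 for *ikzf1*, from -0.10 to 0.47 for *irf8*, from -0.32 to 0.073 for *spi1a*, from -1.15 to 0.33 for *hck*, from -0.23 to 1.38 for *tnfa* and from -1.25 to 6.75 for *lck*.

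The median log2 fold change of the cytokine genes was 0.86 with total counts alone, 0.59 with the replicate block and 0.44 to 1.07 with a library left out. Leave-one-out medians ranged from -0.91 to -0.59 for pan-leukocyte genes, from -0.61 to -0.24 for macrophage genes and from -1.25 to 4.96 for T cell genes. Without its most abundant gene, the log2 ratio of the summed CPM was -0.29 for macrophage (0.46 with it), -2.32 for neutrophil, 0.53 for cytokine and 1.09 for T cell genes. No value was left for B cell genes. With a library left out, these log2 ratios ranged from 0.031 to 0.79 for macrophage, -4.63 to -2.90 for neutrophil, -0.89 to -0.58 for shared myeloid, 0.57 to 0.88 for cytokine and -1.62 to -1.02 for B cell genes. Except where fewer genes or libraries were fitted, the cause was not tested. Low counts, at most 122 in a library, limit the neutrophil, T and B cell genes.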
